A study of Mus musculus with 3 samples.

Results

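Il12rb1, Il12rb2, Il18r1, Il18rap, Il1rl1, Il21r, Stat4 and Tyk2 encode the receptor chains through which natural killer (NK) cells respond to IL-12, IL-18, IL-33 and IL-21, together with a kinase and a transcription factor that act downstream of them. These 8 genes were taken by symbol from 22350 protein-coding genes of the mouse mm9 annotation, and each gene body was examined with 20 kb on either side, called its window. Binding of the transcription factor Runx3 and monomethylation of histone H3 at lysine 4 (H3K4me1), a mark of enhancers and of the flanks of active promoters, had been mapped by ChIP-seq in resting NK cells freshly isolated from the spleens of ICR mice. There was 1 sample precipitated with an in-house polyclonal antibody to Runx3, 1 with a monoclonal antibody to H3K4me1 and 1 with non-immune serum (NIS) as the control. The labels give no genotype other than the strain, no treatment and no age. The deposited lists held 15524 Runx3 peaks, with a median width of 825 bp, and 49902 H3K4me1 regions, with a median width of 1801 bp. They gave coordinates and no height or read count, so the depth behind a peak is unknown, and with 1 list per antibody no value below has a spread between replicates and no test was made. A list from a cell population does not show in what share of the cells a site was bound.

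IL-12 is bound by a receptor made of Il12rb1 and Il12rb2, and the kinases Tyk2 and Jak2 on its chains phosphorylate Stat4, which enters the nucleus and activates Ifng, the gene of interferon-γ. IL-18 is bound by Il18r1 and its accessory chain Il18rap, which signal through the adaptor Myd88 and Irak kinases, and the pairing of IL-12 with IL-18 is a classical strong stimulus for interferon-γ production by NK cells. Il1rl1 is the receptor for IL-33 and belongs to the same family as Il18r1, whereas Il21r pairs with the common γ chain to bind IL-21, a cytokine that promotes NK cell maturation and cytotoxicity.

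All 8 genes had at least 1 Runx3 peak in their window, against 51.0% of all protein-coding genes. The 8 windows formed 6 loci of 633 kb in total, because Il1rl1, Il18r1 and Il18rap lie side by side on chromosome 1, and they held 40 different peaks and 66 H3K4me1 regions. Of these peaks, 9 lay in the windows of 2 neighbouring genes, so that the counts per gene sum to 49. In all, 26 peaks touched the body of a member. A peak midpoint lay under 1 kb from an annotated transcript start at 6 of the 8 genes, against 27.2% of protein-coding genes, and Il12rb1 and Il1rl1 were the genes without one. Each of the 40 peaks overlapped H3K4me1 by 1 bp or more (95% Wilson interval 91.2 to 100%), against 95.7% of all Runx3 peaks, and a match to the RUNX consensus was present in 39 of them (97.5%, interval 87.1 to 99.6%), against 93.3% of all peaks. The intervals reflect only the counting of peaks, which do not stand for separate animals.

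**Figure D1:**
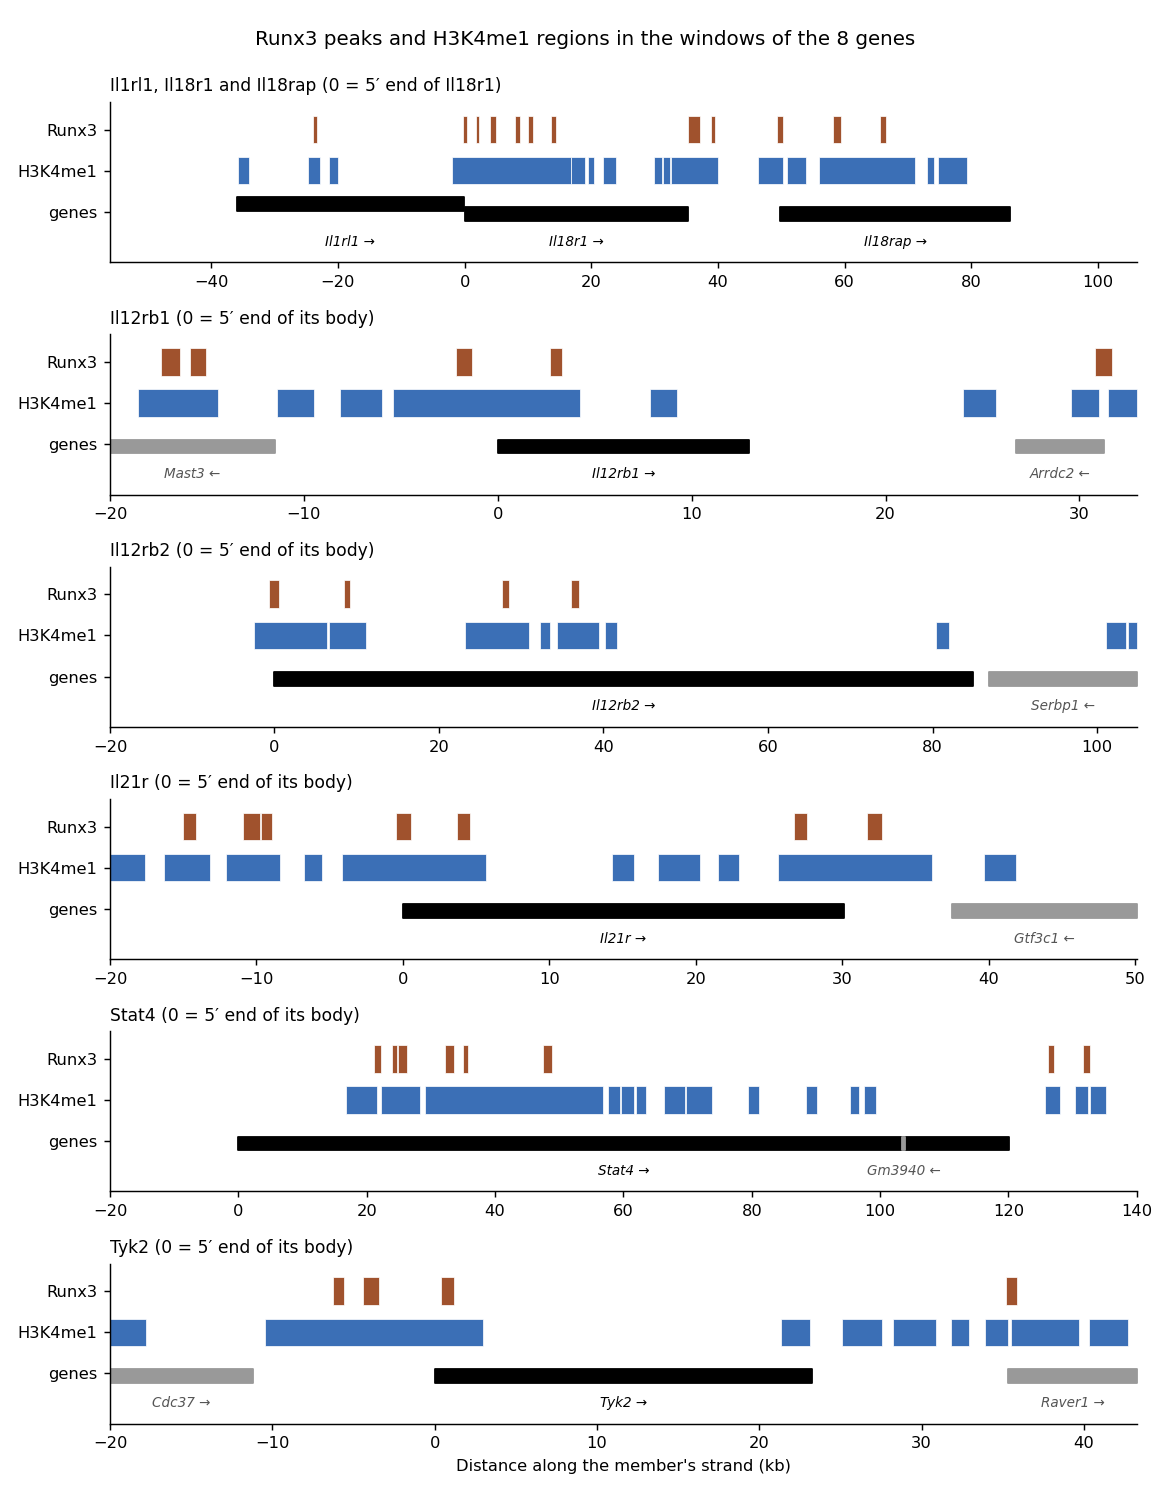
Runx3 peaks (brown), H3K4me1 regions (blue) and protein-coding gene bodies (black for the 8 genes, grey for neighbours drawn, arrows for the direction of transcription) in the windows of the 8 genes, with distance in kb from the 5′ end of the gene named above each panel. Each of the 40 peaks lies over or touches a blue bar, and in the top panel 6 of the peaks stand over 1 broad H3K4me1 region that begins before the 5′ end of Il18r1.

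The peaks at member starts mostly lay over untranslated first exons, so these are shown as the 30 bases around the RUNX match nearest to the peak midpoint, a choice made after the values were seen. They are given 5′ to 3′ on the strand that reads TGTGGT or another word of the consensus, from the mm9 sequence, with the match in capitals.
Il12rb2, 5′ end of the gene (chr6:67326200-67326229, minus strand): aaaccctccctcTGCGGCtagtggcgggcg
Il12rb2, internal start (chr6:67289647-67289676, plus strand): atgcctgcttggTGTGGTggcctttttgct
Il18r1 (chr1:40522444-40522473, plus strand): ctgcctgaagggTGTGGCgcgcacagggca
Il18rap (chr1:40572226-40572255, minus strand): caagaaaggggtTGTGGTtaggtttagttg
Il21r (chr7:132747000-132747029, plus strand): gcccacttctccTGTGGTgtgcctcacggt
Stat4 (chr1:52065586-52065615, plus strand): cccgcatctgcgTGTGGCctctccacaata
The word TGTGGT was the one nearest to the midpoint at Il18rap, Il21r and the internal start of Il12rb2, TGTGGC at Il18r1 and Stat4, and TGCGGC at the 5′ end of Il12rb2.

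Il12rb1 (chr8:73332348-73345323, plus strand) encodes the chain shared by the IL-12 and IL-23 receptors. Its window held 5 Runx3 peaks of 591 to 1014 bp and 8 H3K4me1 regions of 1397 to 9647 bp, which covered 45% of its bases. Only 2 of these peaks had a start of Il12rb1 as their nearest coding start. One of them, chr8:73330182-73331034, had its midpoint 1740 bp upstream of the 5′ end, and the other, chr8:73335060-73335650, lay over exon 4 and intron 4. Both stood in the same 9647 bp H3K4me1 region, which spans the start and ends within the gene. The other 3 peaks were at neighbours. The peaks chr8:73314968-73315981 and chr8:73316490-73317300 lay inside Mast3, a kinase gene, and chr8:73363144-73364034 covered the start of Arrdc2, an arrestin-domain gene. The last of these was the single peak among the 40 whose midpoint was outside H3K4me1, with 44.8% of its bases in the regions on its 2 sides. The central 200 bases of the peak upstream of Il12rb1, the nearest to its start, and of the widest other peak of the window, inside Mast3, are given with RUNX matches in capitals on either strand.
Il12rb1 upstream (chr8:73330508-73330707, plus strand): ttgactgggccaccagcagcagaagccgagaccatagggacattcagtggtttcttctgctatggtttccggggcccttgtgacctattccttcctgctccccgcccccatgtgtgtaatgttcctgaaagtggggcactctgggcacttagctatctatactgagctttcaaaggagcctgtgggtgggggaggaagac
Mast3 peak in the Il12rb1 window (chr8:73315375-73315574, plus strand): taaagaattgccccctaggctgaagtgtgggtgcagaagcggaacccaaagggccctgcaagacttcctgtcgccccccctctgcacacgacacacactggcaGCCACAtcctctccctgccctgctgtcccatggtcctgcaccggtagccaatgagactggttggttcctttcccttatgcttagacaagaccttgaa
The first of these stretches held no RUNX match, and the 1 match of its peak lay 278 bp from the midpoint.

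Il12rb2 (chr6:67241312-67326182, minus strand) encodes the signalling chain of the IL-12 receptor, which recruits Stat4. Its window of 124871 bp held 4 Runx3 peaks of 722 to 1131 bp, all of which touched the gene body and were nearest to a start of Il12rb2. The peak chr6:67325674-67326804 covered the 5′ end, with its midpoint 57 bp from it. A second peak, chr6:67289210-67290109, had its midpoint 28 bp from the other annotated start, which lies in intron 7 of the longer transcript. The remaining peaks were chr6:67297714-67298468, also in intron 7, and chr6:67316973-67317694 in intron 1. The intron 1 peak was the only one of the 40 without a RUNX match, and it held 1 AP-1 and 1 STAT match. The 9 H3K4me1 regions, of 1260 to 8786 bp, covered 27.2% of the window, the lowest share among the 8 genes, and the widest lay over the 5′ end.

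Il18r1 (chr1:40522397-40557699, plus strand) encodes the ligand-binding chain of the IL-18 receptor and had the most peaks of the 8 genes, with 9 in its window. The first, chr1:40522091-40522761, covered the 5′ end, and its midpoint lay 29 bp from it. Then followed chr1:40524159-40524735 and chr1:40526345-40527428 in intron 1, chr1:40530373-40531204 in intron 2, chr1:40532370-40533233 in intron 3 and chr1:40536020-40536891 in intron 4. These 6 peaks were spaced through the first part of the gene and all stood in 1 H3K4me1 region of 18802 bp, chr1:40520360-40539161, which ranked 211 by width among the 49902 regions of the list. It was the single region of the 66 with 5 or more peaks. At the other end of the gene, chr1:40557690-40559579 overlapped the last exon, exon 11, only at the peak's edge and lay mostly beyond the gene. It was the widest of the 40 peaks at 1890 bp. It was followed by chr1:40561329-40561952, which began 3629 bp beyond the gene and stood with it in a region of 7425 bp. The ninth peak was the one over the start of Il18rap. In all, 9 regions covered 54.5% of the window and 77.5% of the gene body, the highest body cover among the 8 genes.

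Il18rap (chr1:40572207-40608550, plus strand) encodes the accessory chain without which IL-18 does not signal. Its window held 5 Runx3 peaks, of which 3 touched the gene. The peak chr1:40571770-40572671 had its midpoint 14 bp from the 5′ end, the shortest such distance among the 40 peaks. The peak chr1:40580622-40581823 lay over exons 4 and 5, and chr1:40587901-40588850 over exon 7. Both stood in a region of 15210 bp, chr1:40578273-40593482, which ranked 355 by width. The other 2 peaks of the window were those at the 3′ end of Il18r1, and their nearest coding start was that of Il18rap. H3K4me1 covered 49.5% of the window in 8 regions, and 67.4% of the gene body.

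Il1rl1 (chr1:40486415-40522260, plus strand) encodes the IL-33 receptor and ends just before Il18r1 begins. Its window held 7 peaks, but 6 of these were the peaks over the start and first introns of Il18r1, of which 5 lay wholly in its flank and the one over the Il18r1 start also reached its 3′ end. The single peak with Il1rl1 as its nearest start was chr1:40498457-40499093, of 637 bp, in intron 3 and 1302 bp beyond the nearest of the 5 annotated starts. None of these 5 starts lay in an H3K4me1 region, and H3K4me1 covered 18.9% of the gene body, the lowest share of the 8. The window count of Il1rl1 therefore describes mainly its neighbour. The central 200 bases of its own peak and of the peaks named by the same rule in the cluster are given below, with RUNX matches in capitals on either strand.
Il1rl1 intron 3 (chr1:40498675-40498874, plus strand): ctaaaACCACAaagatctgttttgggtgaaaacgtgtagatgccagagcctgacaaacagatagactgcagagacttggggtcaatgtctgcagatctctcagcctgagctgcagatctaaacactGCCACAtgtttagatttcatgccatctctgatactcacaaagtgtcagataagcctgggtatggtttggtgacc
Il18r1 intron 1, widest other peak of the Il1rl1 window (chr1:40526787-40526986, plus strand): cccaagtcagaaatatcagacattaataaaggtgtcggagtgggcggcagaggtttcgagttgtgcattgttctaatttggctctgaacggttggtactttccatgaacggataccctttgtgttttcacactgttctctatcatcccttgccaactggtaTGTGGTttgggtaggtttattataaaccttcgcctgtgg
Il18r1 3′ end, widest peak of the 40 (chr1:40558535-40558734, plus strand): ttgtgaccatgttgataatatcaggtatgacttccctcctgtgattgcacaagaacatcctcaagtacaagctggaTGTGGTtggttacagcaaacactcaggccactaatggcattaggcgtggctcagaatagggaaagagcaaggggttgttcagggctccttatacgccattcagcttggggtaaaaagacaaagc
The Il1rl1 stretch held 2 RUNX matches and each of the others held 1, while none had an ETS, AP-1 or T-box match. The Il18r1 intron 1 stretch also held 1 STAT match.

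On either side of these 3 genes the counts per window were lower than theirs. Upstream, Il1r2, the decoy receptor for IL-1, had 0 peaks, Il1r1, the signalling receptor for IL-1, had 1, and Il1rl2, the receptor for IL-36, had 2. Downstream, the sodium-proton exchanger genes Slc9a4 and Slc9a2 each had 0. H3K4me1 covered 1.72% to 13.3% of the windows of these 5 neighbours, against 34.7% to 54.5% at Il1rl1, Il18r1 and Il18rap. The medians of all protein-coding genes were 0.459 peaks per 100 kb and 7.38% cover. Il1rl2 (2.47 and 13.3%) and Il1r1 (0.763 and 7.58%) were above both, and the other neighbours named were below both. The window of Il1rl1 takes in the 18802 bp region at Il18r1. Its gene body alone had 18.9% cover, and 1 peak was nearest to a start of Il1rl1.

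Il21r (chr7:132746943-132777084, plus strand) encodes the chain that binds IL-21. All 7 Runx3 peaks of its window had Il21r as their nearest coding start. Upstream of the gene lay chr7:132731920-132732818, which ended 14124 bp before the 5′ end, and the pair chr7:132736021-132737213 and chr7:132737271-132738011, which shared an H3K4me1 region of 3699 bp. The peak chr7:132746459-132747521 covered both annotated starts, and its midpoint lay 18 bp from the nearer of them. In the gene, chr7:132750651-132751534 was in intron 1 and chr7:132773623-132774515 covered exon 8 with part of intron 7, and chr7:132778621-132779643 lay 1536 bp beyond the gene. The 10 H3K4me1 regions, of 1224 to 10519 bp, covered 55.2% of the window, the highest share among the 8 genes. The first peak of the upstream pair held 11 RUNX matches, more than any other of the 40. Its 300 bases with the most matches, 5 in number, were chosen after the values were seen and are shown with its central 200 bases.
Il21r upstream, most RUNX matches (chr7:132736158-132736457, plus strand): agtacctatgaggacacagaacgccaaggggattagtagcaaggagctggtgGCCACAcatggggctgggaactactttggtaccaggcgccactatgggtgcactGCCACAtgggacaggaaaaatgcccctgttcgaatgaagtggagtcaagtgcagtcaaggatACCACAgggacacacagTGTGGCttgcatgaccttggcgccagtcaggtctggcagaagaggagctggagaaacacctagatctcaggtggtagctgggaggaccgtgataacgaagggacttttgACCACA
Il21r upstream, centre (chr7:132736517-132736716, plus strand): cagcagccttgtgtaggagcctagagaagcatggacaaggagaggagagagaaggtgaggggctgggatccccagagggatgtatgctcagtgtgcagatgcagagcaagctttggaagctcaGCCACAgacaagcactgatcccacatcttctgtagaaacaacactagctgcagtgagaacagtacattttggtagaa
All 11 matches of this peak read TGTGGT, in 7 cases, or TGTGGC, in 4.

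Tyk2 (chr9:20908521-20931790, minus strand) encodes the Janus kinase bound to Il12rb1. Its window held 4 peaks of 693 to 979 bp. The peak chr9:20930597-20931411 lay in intron 1 with its midpoint 786 bp from the start, which it did not cover. The peaks chr9:20935228-20936206 and chr9:20937371-20938076 lay 3437 and 5580 bp upstream of the gene. These 3 peaks stood in 1 H3K4me1 region of 13437 bp, chr9:20928807-20942243, which extends mostly upstream. The fourth, chr9:20895921-20896613, covered the start of Raver1, the gene of an RNA-binding protein, 11907 bp beyond the 3′ end of Tyk2. H3K4me1 covered 50.1% of the window and 20.5% of the gene body, in 9 regions for the window. The centres of the peak nearest to the start and of the widest other peak are given.
Tyk2 intron 1 (chr9:20930904-20931103, plus strand): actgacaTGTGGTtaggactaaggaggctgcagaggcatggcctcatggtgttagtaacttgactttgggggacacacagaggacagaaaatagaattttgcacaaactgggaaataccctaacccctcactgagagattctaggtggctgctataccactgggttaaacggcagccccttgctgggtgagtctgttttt
Tyk2 upstream (chr9:20935617-20935816, plus strand): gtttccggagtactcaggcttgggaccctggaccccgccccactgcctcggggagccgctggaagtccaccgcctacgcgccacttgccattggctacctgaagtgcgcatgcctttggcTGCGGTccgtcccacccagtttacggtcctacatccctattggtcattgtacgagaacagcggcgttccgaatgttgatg
The first held 1 match of the word TGTGGT and the second 1 of TGCGGT.

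Stat4 (chr1:52043992-52164032, plus strand) encodes the transcription factor activated by IL-12. Its window of 160041 bp held 8 Runx3 peaks of 762 to 1367 bp and 15 H3K4me1 regions. The annotation gives 2 starts. The upstream one, at position 52043992, lay in no H3K4me1 region and was 21670 bp from the nearest peak midpoint. The other, at position 52065088, was the first base of the peak chr1:52065088-52066235. In the gene followed chr1:52067916-52068784, over exon 2, chr1:52068923-52070265 in intron 2, and chr1:52076184-52077539, chr1:52078984-52079745 and chr1:52091425-52092791 in intron 3. The last 3 stood in 1 H3K4me1 region of 27746 bp, chr1:52073113-52100858, the widest at any of the 8 genes, with rank 62 by width in the list. Of the peaks beyond the gene, chr1:52170186-52171156 lay 6153 bp from its 3′ end. H3K4me1 covered 40.6% of the window. The centre of the widest peak, in intron 3, is given.
Stat4 intron 3 (chr1:52092008-52092207, plus strand): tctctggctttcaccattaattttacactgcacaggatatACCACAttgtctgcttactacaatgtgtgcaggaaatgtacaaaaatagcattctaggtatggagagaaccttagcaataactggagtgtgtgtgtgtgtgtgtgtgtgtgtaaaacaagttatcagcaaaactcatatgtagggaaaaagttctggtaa
It held 1 match, of the word TGTGGT read on the other strand.

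When set beside all 22350 protein-coding genes, the windows of the 8 genes were rich in both lists. The median gene had 1 peak, 0.459 peaks per 100 kb and 7.38% of its window in H3K4me1, whereas the medians of the 8 genes were 6 peaks, 7.89 peaks per 100 kb and 47.3%. Peaks per 100 kb were 12.0 at Il18r1, 9.98 at Il21r, 9.44 at Il12rb1, 9.23 at Il1rl1, 6.55 at Il18rap, 6.32 at Tyk2, 5.0 at Stat4 and 3.20 at Il12rb2. For 7 of the 8 genes this value was above the 90th percentile of all genes, which was 4.68, and for Il12rb2 80.9% of genes were lower. The same 7 genes were above the 90th percentile of H3K4me1 cover, 29.5%, and Il12rb2, at 27.2%, exceeded 88.0% of genes. Windows of the 8 genes were longer, with a median of 75574.5 bp against 55427 bp, and values per 100 kb take this length into account. The values of Il1rl1, Il18r1 and Il18rap share peaks and are not independent. Values per window also count peaks nearest to the start of another gene. Peaks nearest to the gene's own starts were 1 of 7 at Il1rl1, 2 of 5 at Il12rb1 and 6 of 9 at Il18r1. They were 6 of 8 at Stat4 and 3 of 4 at Tyk2, and all of them at Il12rb2, Il18rap and Il21r.

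**Figure D2:**
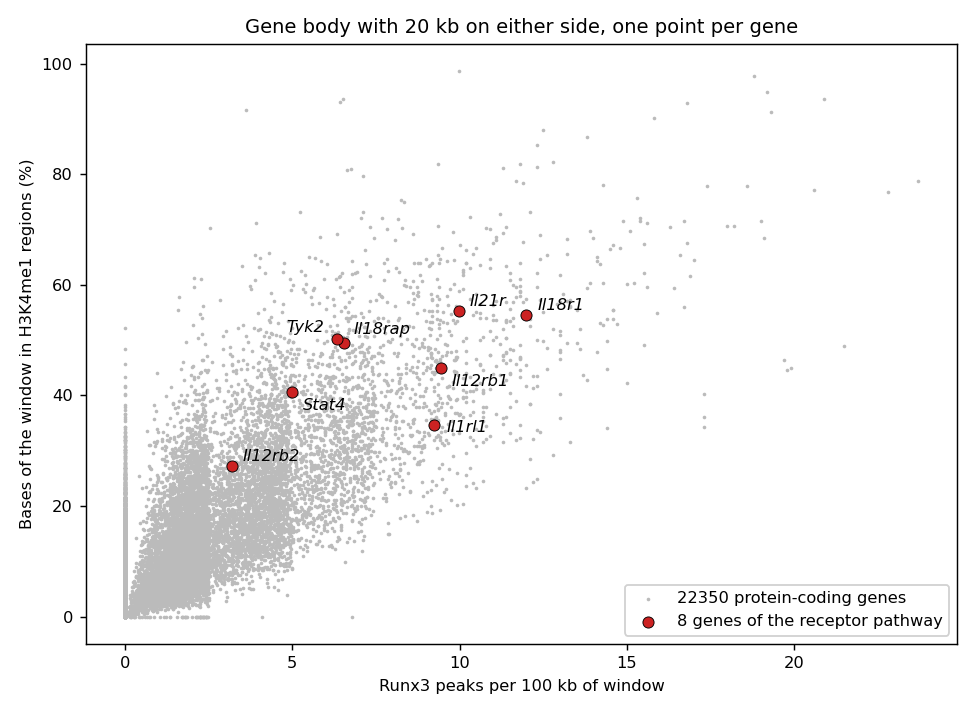
Runx3 peaks per 100 kb of window (horizontal axis) against the percent of window bases in H3K4me1 regions (vertical axis) for 22350 protein-coding genes (grey) and the 8 genes (red). Il18r1 lies farthest right of the 8 at 12.0 peaks per 100 kb, Il21r highest at 55.2% and Il12rb2 lowest on both axes.

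The RUNX consensus was searched on both strands as the words TGTGGT and TGTGGC and TGCGGT and TGCGGC. The 40 peaks held 116 matches, or 3.09 per kb, against 3.19 per kb over all peaks. The match closest to the midpoint was at a median of 34.5 bp, and it lay within 50 bp in 24 of the 40 peaks, against 48.3% of all peaks. In the central 200 bp a match was present in 85.0% of the 40 peaks and in 69.2% of all peaks. Among the words, TGTGGT was present in 72.5% of the 40 peaks (65.5% of all), TGTGGC in 55.0% (54.1%), TGCGGT in 20% (24.7%) and TGCGGC in 17.5% (26.1%). The word nearest to the midpoint was TGTGGT in 22 peaks, TGTGGC in 10, TGCGGC in 5 and TGCGGT in 2.

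**Figure D3:**
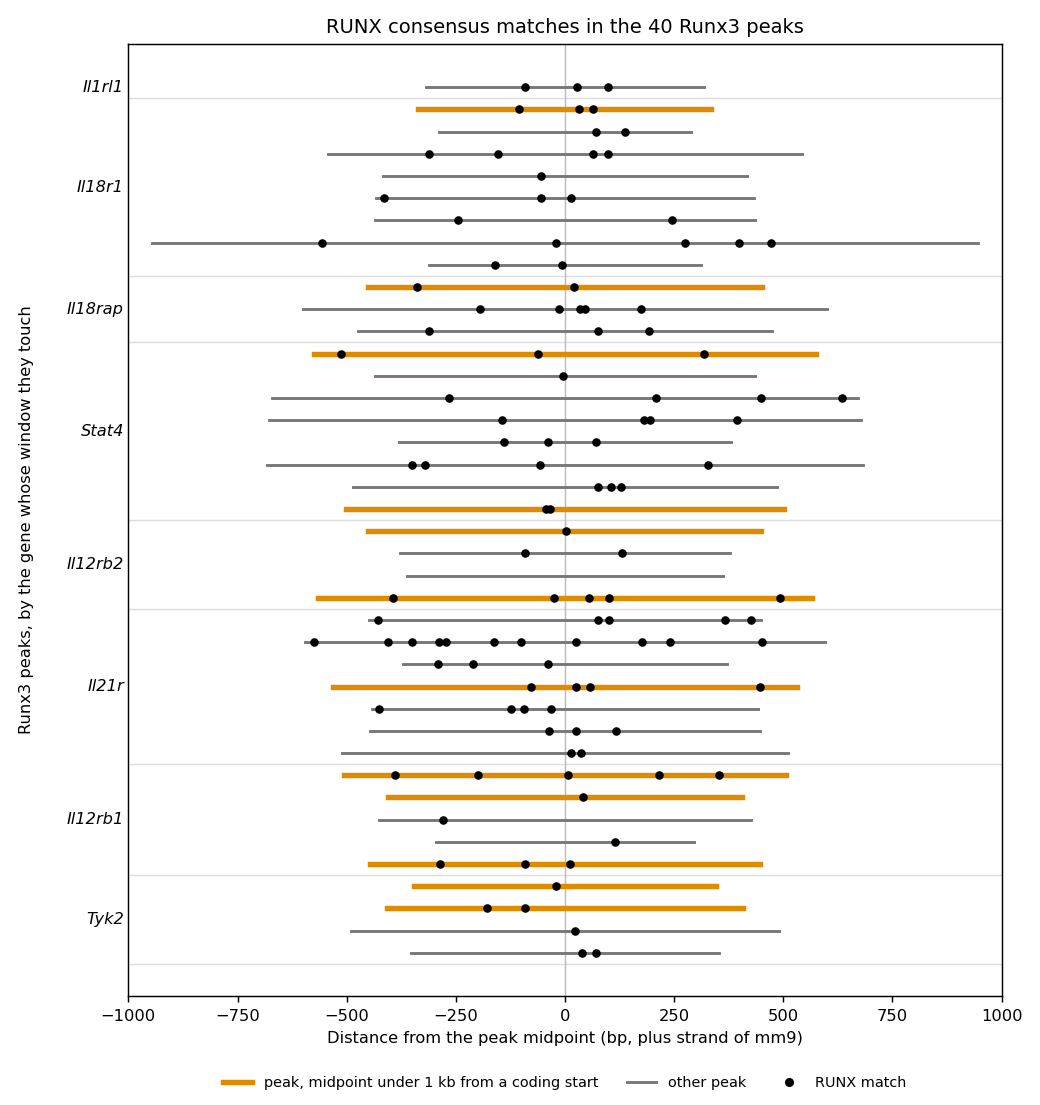
Positions of RUNX matches (dots) relative to the midpoint of each of the 40 Runx3 peaks (bars, drawn at their width in bp), grouped by gene. The closest dot lies within 50 bp of the midpoint in 24 peaks, 1 bar of Il12rb2 has no dot, and 1 bar of Il21r has 11.

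Other motifs were searched in the same peaks. The ETS words AGGAAGT and CGGAAGT were present in 32.5% of the 40 peaks, against 41.8% of all peaks, and 17.5% had an ETS word within 50 bp of a RUNX match, against 16.9%. The AP-1 words TGAGTCA and TGACTCA were present in 17.5% (16.5% of all) and the T-box word GGTGTGA in 15.0% (16.7%), with 1 T-box match overlapping a RUNX match. The STAT word TTCNNNGAA was present in 13 of the 40 peaks, or 32.5% (95% Wilson interval 20.1 to 48.0%), against 22.3% of all peaks. Its highest number was 3 matches, in the peak over the start of Il18r1. In the central 200 bp the shares were 22.5% against 20.1% of all peaks for ETS, 15.0% against 5.49% for AP-1 and 15.0% against 5.5% for STAT, the last 2 being 6 peaks each. No T-box match lay in the central 200 bp of the 40 peaks, against 6.34% of all peaks. Taken as 3 counts in 40 peaks, and not as a Wilson limit, this count of 0 allows a share of up to 7.5%. Such matches are descriptions of the sequence and were not tested as binding sites.

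The 40 peaks differed among themselves by their distance from a coding start. In 12 of them (30%, against 37.2% of all peaks) the midpoint was under 1 kb from one, and 7 of these starts belonged to the 8 genes, with 2 at Il12rb2. The other 28 peaks had a median GC content of 44.0% and 1.02 CpG per 100 bp, against 53.0% and 2.29 for the 12. A match to TGCGGT or TGCGGC was present in 50% of the 12 and 25.0% of the 28, and to TGTGGT in 50% and 82.1%. The 12 were mixed. At starts of the 8 genes, TGCGGT or TGCGGC was present only at Il21r and the 5′ end of Il12rb2. Their other matches among the 12 lay in peaks at starts of other genes. TGTGGT was missing at starts of the 8 genes only at Stat4 and the 5′ end of Il12rb2. At starts of other genes it was present only in chr8:73314968-73315981, in Mast3. Over all peaks of the list, TGCGGT or TGCGGC was present in 66.9% near a coding start and 26.7% farther away, and TGTGGT in 44.4% and 78.0%. All 28 lay wholly within H3K4me1 and 7 of the 12 did (58.3%). The 5 peaks that reached out of H3K4me1 were all among the 12, and included those over the starts of Il18rap, Stat4, Arrdc2 and Raver1. Over all peaks of the list, 29.9% of the 5771 near a coding start and 91.2% of the 9753 farther away were wholly within H3K4me1, and CpG content was 6.26 and 1.22 per 100 bp.

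Other genes of the pathway were described by the same windows, from a list of 37. Of these, 29 had a Runx3 peak, against 51.0% of all protein-coding genes, and 13 had one under 1 kb from a start, against 27.2%. The medians were 1 peak and 2.25 peaks per 100 kb, against 1 peak and 0.459 for all genes. The counts by role that follow are to be read beside these shares. Among the ligands 5 of 8 had a peak, but none had one at a start or touching the gene body, so these peaks lay only in the flanks. Il12a, a subunit of IL-12, and Il27 had the most with 2 each, and Il12b, Il18 and Il33, the genes of the shared IL-12 subunit, of IL-18 and of IL-33, had 0. Among other receptor chains 5 of 8 had a peak, with the most at Il1rl2, and 0 at Il23r, the chain that pairs with Il12rb1 for IL-23, at Il1r2 and at Il27ra, the IL-27 receptor. Among decoys and inhibitors 4 of 5 had a peak, with 6 at Socs1, an inhibitor of Janus kinases, and 0 at Il18bp, the soluble decoy for IL-18. Among kinases and adaptors 8 of 9 had a peak, with 9 at Irak2, a kinase of the IL-18 receptor pathway, and 0 at Traf6, the ubiquitin ligase downstream of it. All 7 transcription factors and target genes had a peak, with the most, 8, at Tbx21, the gene of T-bet.

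The label of the cells was set against marker genes in the same windows, since no RNA was measured in these files. From the same experiments, the study had named Ncr1 and Klr genes as bound in NK cells, and Cd4 and Cd8 as unique to CD8-positive T cells. Those genes are therefore no independent check of the label. All 6 NK cell markers (Ncr1, Klrb1c, Klrk1, Itga2, Eomes and Prf1) had a Runx3 peak and a peak at a start, with 29.8% to 81.9% of their windows in H3K4me1. Of the markers of other cells, 3 of 4 for B cells, 2 of 4 for T cells and 2 of 4 for myeloid cells had a peak in the window, with H3K4me1 cover of 0 to 28.2%, 0 to 27.3% and 0 to 20.5% (medians 12.0%, 15.0% and 2.48%, against 61.5% for the NK cell markers). Cd79a, with 3 peaks and 28.2% cover, and Cd3e, with 2 peaks and 27.3%, came close to Eomes, which had 3 peaks and the lowest cover of the NK cell markers. The peaks of Cd79a and Cd3e lay only in the flanks, whereas 1 of those of Eomes touched its body. None of the 12 markers of other cells had a peak under 1 kb from a start, and Ms4a1, Cd8a, Lyz2 and Emr1 had neither a peak nor an H3K4me1 region. Over all protein-coding genes, 51.0% had a peak in the window and 27.2% had one under 1 kb from a start.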

How the data were processed

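ChIP-seq had been done on resting splenic NK cells with antibodies to Runx3 and H3K4me1 and with NIS. Per the labels the cells were sorted on NKp46, whereas the study's methods name DX5. The authors aligned 40-base reads with ELAND, CASAVA 1.7 being named in the submitters' processing notes, kept unique alignments, joined biological repeats, scaled the larger set to the smaller and called peaks with MACS against NIS. The caller's threshold was not given in the sources used here. The deposited lists, 1 per antibody, held coordinates only. They were read as mm9, and positions are 1-based.

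Genes and transcript starts were those of GENCODE for the same build, on 20 chromosomes. Peaks and H3K4me1 regions were counted when they shared at least 1 bp with a gene body and 20 kb on either side. Motifs were searched on both strands of the mm9 sequence with Python 3.11.15 scripts, which were tested on simulated data. Intervals are 95% Wilson intervals from scipy 1.17.1. The nearest start was that of any protein-coding gene. The members and the lists were chosen with earlier results of these data known. Named were all 8 genes with every peak but 1, which lies at an item not reported here, and of the pathway list, by role, the genes with the most peaks and with 0. Sequences were the central 200 bp of the peak nearest to a start and of the widest other peak, where no UTR was touched. Alternatives changed the flank, the overlap rule, the peak set, the start rule and the motif. With 1 list per antibody, no test between groups was made.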

Additional observations from a re-analysis of the deposited data

How the results depend on the processing

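Of 27 alternatives over 7 results, 22 stayed within 1.5 times the count or within the counting interval of the value, and 5 did not, by the construction of a narrower window or a stricter rule. With the gene body alone, the 40 Runx3 peaks of the 8 genes became 26, while all 8 genes had a peak, against 33.6% of protein-coding genes, and the 29 pathway genes with a peak became 19. When the whole peak had to lie inside H3K4me1, the share of peaks fell to 87.5%, against 68.4% of all peaks. When only the central 200 bp were searched, 85.0% of the 40 peaks had a RUNX match, and with the word TGTGGT alone 72.5% did. All 8 genes had a peak under each of the 6 alternatives tried for that count, including peaks wider than the median and peaks nearest to a member's start. Of all protein-coding genes, 35.1% had a peak wider than the median, 39.8% had a peak with a flank of 5 kb and 62.6% with one of 50 kb. The share over all genes was not counted for the midpoint and nearest-start rules. A flank of 50 kb gave 56 peaks. With a limit of 5 kb, all 8 genes had a peak at a start, against 32.9% of protein-coding genes. With 1 start per gene, the 5′ end of the body, 5 genes did, against 24.7%, and Stat4 dropped out. When the peak itself had to cover a start, 5 genes did, against 24.2%, and Tyk2 dropped out. Depth limits at single peaks are unknown, because the lists held no counts, and a gene without a peak may have had signal under the caller's threshold. No paired analysis was possible because each antibody had a single deposited list, made from joined repeats per the study's methods, and no test was made.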
